A study of Drosophila melanogaster with 2 samples.

Results

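Small nucleolar and small nuclear RNA genes encode short noncoding RNAs that work in ribonucleoprotein particles of the nucleus. Small nucleolar RNAs (snoRNAs) base-pair with ribosomal RNA and direct its modification. Box C/D snoRNAs guide 2′-O-methylation, and H/ACA snoRNAs guide the conversion of uridine to pseudouridine. Small nuclear RNAs (snRNAs) such as U1, U2, U5 and U6 form the core of the spliceosome, which removes introns from pre-mRNA. In Drosophila most snoRNAs lie in introns of host genes and are released from the spliced intron, while snRNA genes have their own promoters. RNA polymerase II transcribes most of those, and RNA polymerase III transcribes U6 and 7SK.

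Signal over these genes was measured by sequencing chromatin precipitated with dBigH1, set against unprecipitated input chromatin. dBigH1 is a linker histone, a protein of the H1 family that binds the nucleosome and the DNA leaving it, and is specific to the germline. Both libraries came from whole testes of adult w1118 males, a white-eyed laboratory stock with no added transgene named in the labels. The dBigH1 library was made with an anti-dBigH1 antibody and the input library with none. There was 1 library of each, prepared from pooled testes (2000 dissected, sonicated in pools of 1000), so nothing could be checked against a replicate and no test between groups was possible. Cell types of the testis, germline and somatic, were not separated.

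Members were all listed genes whose symbol or description begins with snoRNA, snRNA, small nucleolar RNA or small nuclear RNA. There were 161 of 15421 listed genes, and none of them carries a symbol in the table. By name, 21 were box C/D guides (names beginning Me for methylation), 94 were H/ACA guides (Psi for pseudouridine, or Or-aca), 20 were snoRNAs whose name gives no box class, 23 were spliceosomal snRNAs and 3 were other snRNAs (U7, 7SK and a U3 gene that the table describes as an snRNA, although U3 acts in the nucleolus). The U6atac gene at 29B was not a member, because its description begins differently.

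The dBigH1 library held 2864636 reads and the input library 12747726. Whole reads per gene were recovered from the deposited values. Ratios of dBigH1 to input reads are given on the log2 scale relative to the median listed gene, which had 20 dBigH1 reads and 197 input reads. Scaling by library totals in place of the median gene lowers every ratio by the same amount, since the median gene stands at -1.0 on that scale. Intervals are 95% exact Clopper-Pearson intervals of the share of reads from dBigH1. They cover counting error only, since PCR copies are not independent molecules.

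The members were covered thinly. They are 55 to 444 bp long, with a median of 137 bp, and had a median of 2 dBigH1 reads and 14 input reads. The lowest had 1 read and the highest 12 in the dBigH1 library, against 1 to 90 reads in input. Of the 161 genes, 39 had a single dBigH1 read and 49 had 2, and 115 had at most 3. Every listed gene of the series had at least 1 read in each library, which raises the ratio of genes with few reads. A zero-truncated Poisson estimate allows for this, under the assumption that all genes of a group share a ratio. It is therefore given beside the main pooled ratios, and pooled ratios without it are not corrected for this.

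**Figure D1:**
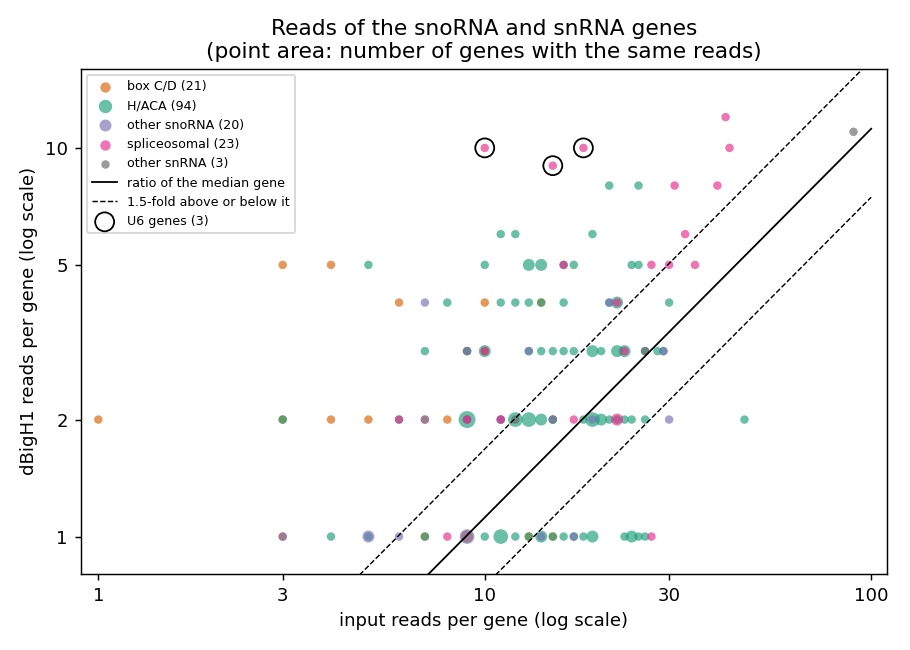
dBigH1 reads (vertical axis, log scale) against input reads (horizontal axis, log scale) of the 161 genes, coloured by class. The solid line is the ratio of the median gene and the dashed lines lie 1.5-fold above and below it. Most genes sit at 1 to 3 dBigH1 reads, and the 3 circled U6 genes lie far above the lines with 9 or 10.

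Pooled over all members, there were 480 dBigH1 reads against 2596 input reads. This gave a ratio of 0.72 above the median gene (95% interval 0.58 to 0.86), or 1.65-fold, and a zero-truncated estimate of 0.58. The median over members was 0.70, with quartiles of -0.09 and 1.42. These values were close to those of other short genes. The other 748 listed genes under 300 bp pooled to 0.80 (0.73 to 0.86), with a zero-truncated estimate of 0.68 and a median of 0.57. The 231 tRNA genes pooled to 0.58 (0.44 to 0.71) and the 178 microRNA genes to 0.53 (0.37 to 0.69), with zero-truncated estimates of 0.28 and 0.17. Reads summed over all listed genes stood at 0.40.

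Counts of single genes showed the same. A ratio at least 1.5-fold above the median gene was found for 82 members (50.9%), against 16.2% of all listed genes and 49.5% of the other genes under 300 bp. A ratio at least 1.5-fold below it was found for 19 (11.8%), against 17.3% of all genes and 13.8% of the short ones. All 19 had 1 or 2 dBigH1 reads. Since 1 read was the minimum, genes with few input reads could not be called lower. A member with 1 against 13, Psi18S-525f, stood at -0.54, within the limit. The interval lay wholly above the median gene for 14 members (8.70%), fewer than the 17.9% of all listed genes and the 13.5% of the other short genes. It lay wholly below for 0 members, as for 0 of the other short genes and 9.41% of all genes. That count was set by depth for most members. U4atac had the lowest ratio, with 1 dBigH1 read against 27 input reads, and its interval still reached 1.0. The list as a whole thus gave shares close to those of other short genes, with fewer intervals above the median gene. Classes and loci within the list differed more.

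The spliceosomal snRNA genes pooled to 117 dBigH1 reads against 517 input reads, a ratio of 1.01 (0.71 to 1.31). Of 23 genes, 15 (65.2%) stood above the median gene by 1.5-fold or more, against 49.5% of other genes under 300 bp and 16.2% of all listed genes, and 1 stood as far below it. With a median of 5 dBigH1 reads they were the class least affected by listing, and the zero-truncated estimate was 0.98. The types differed. U6, the catalytic snRNA of the spliceosome, was singled out after its values were seen, and pooled to 29 dBigH1 reads against 43 input reads over its 3 genes. That is a ratio of 2.59 (1.86 to 3.30), or 6.02-fold above the median gene. The 20 other spliceosomal genes pooled to 0.73 (0.38 to 1.06), and the difference from U6 was 1.86 (1.05 to 2.66).

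The 3 U6 genes lie in tandem on chromosome 3R (build dm3). U6 at 96Aa (FBgn0004188, 20381810 to 20381916) had 9 dBigH1 reads against 15 input reads, a ratio of 2.42 (1.05 to 3.71). U6 at 96Ab (FBgn0004189, 20382414 to 20382520) had 10 against 18, a ratio of 2.31 (1.03 to 3.50). U6 at 96Ac (FBgn0004190, 20382937 to 20383043) had 10 against 10, a ratio of 3.16 (1.74 to 4.58). Their RPKM was 29.4, 32.6 and 32.6 in the dBigH1 library, against 11, 13.2 and 7.33 in input. All 3 were thus several fold above the median gene, and each interval excluded it. U6 copies are close to identical, and how the authors placed reads that match several of them is not given, which leaves the split between copies uncertain. The sum of the cluster is free of that split only if each read was counted at 1 copy. Had reads been counted at several copies, they would repeat in the sum and its interval would be too narrow.

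Genes next to the U6 cluster stood lower. U6 at 96Aa lies inside the 3′ end of Esyt2, which encodes an extended synaptotagmin on the same strand. Without the reads that touch this U6 gene, Esyt2 had 183 dBigH1 reads against 1170 input reads, a ratio of 0.48. CG13624, on the opposite strand, has its 3′ end 46 bp after the last U6 gene. It had 380 against 2685, a ratio of 0.34 (0.18 to 0.49). The difference between the pooled U6 genes and CG13624 was 2.25 (1.5 to 2.98). A tRNA gene inside Esyt2, tRNA:asp:96A, starts 786 bp before the start of the first U6 gene. It had 4 against 18, a ratio of 0.99 with an interval of -1.03 to 2.59. High values were thus seen at the U6 genes and not over the whole of their neighbours.

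**Figure D2:**
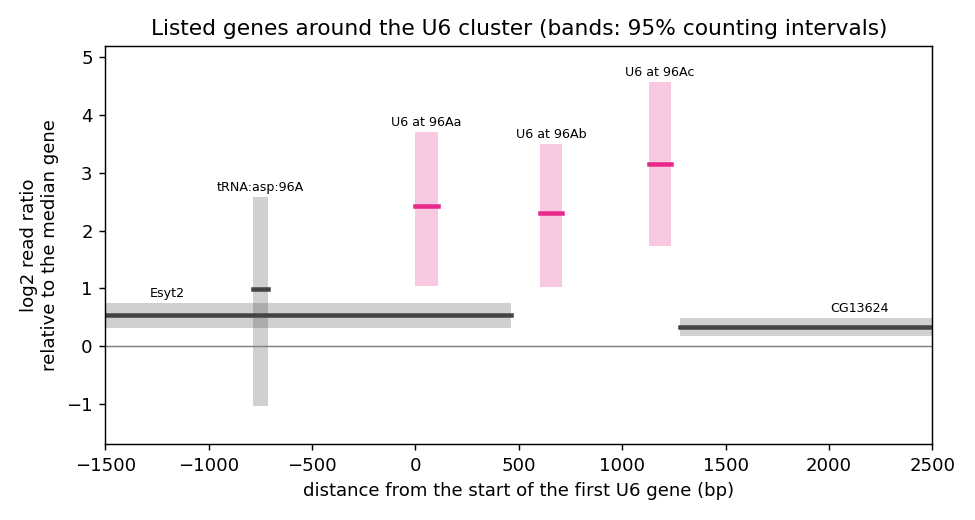
Log2 read ratio relative to the median gene (vertical axis) of listed genes around the U6 cluster, by distance in bp from the start of the first U6 gene (horizontal axis). Horizontal lines span each gene, bands are 95% counting intervals, and Esyt2 and CG13624 run beyond the plot. The 3 U6 genes lie between 2.31 and 3.16, above Esyt2 at 0.53 with all its reads and CG13624 at 0.34.

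Among the other snRNAs, U2, which pairs with the branch point, pooled to 42 dBigH1 reads against 188 input reads over 6 genes, a ratio of 1.0 (0.48 to 1.49). U2 at 34ABb (FBgn0004192, 2L, 13215839 to 13216030) had 12 against 42 and was the only U2 gene whose interval excluded the median gene, at 1.35 (0.29 to 2.30). U2 at 34ABc had 10 against 43, a ratio of 1.05 (-0.10 to 2.07). The remaining U2 genes ran from 0.22 at 34ABa, with 3 against 23, to 1.20 at 38ABa, with 8 against 31. All 6 were thus above the median gene, 5 of them by at least 1.5-fold, with intervals that overlap each other. That limit was passed by 49.5% of other genes under 300 bp and 16.2% of all listed genes. Copies of U2, U5 and U1 are close to identical too, so the same limits on the split of reads and on the sums hold as for U6.

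U5, which aligns the exons, had 17 dBigH1 reads against 77 input reads over 7 genes. It pooled to a ratio of 0.98 (0.13 to 1.75), with a zero-truncated estimate of 0.78. Its single genes had 1 to 5 dBigH1 reads and ran from 0.07 at 35EF to 1.57 at 34AB. U1, which pairs with the 5′ splice site, was the lowest of the multi-copy types, with 20 against 142 over 5 genes, a ratio of 0.33 (-0.42 to 1.01). U1 genes ran from -0.30, at both 82Eb and 95Cc with 2 against 22 each, to 0.70 at 95Ca with 6 against 33. The intervals of U1, U2 and U5 overlap, so their order is not resolved at this depth.

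The snRNAs of the minor spliceosome, which removes a rare class of introns, were U12 and U4atac. U12 at 73B had 8 dBigH1 reads against 40 input reads, a ratio of 0.84 (-0.47 to 1.95). U4atac at 82E had 1 against 27, the lowest ratio of all members, -1.60, with an interval up to 1.0. Of the snRNAs outside the spliceosome, 7SK, which holds back the elongation factor P-TEFb, had 11 against 90, a ratio of 0.13 (-0.93 to 1.03). U7, which acts in 3′-end processing of histone mRNA, had 2 against 12 (0.57), and the U3 gene at 22A had 3 against 26 (0.04).

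**Figure D3:**
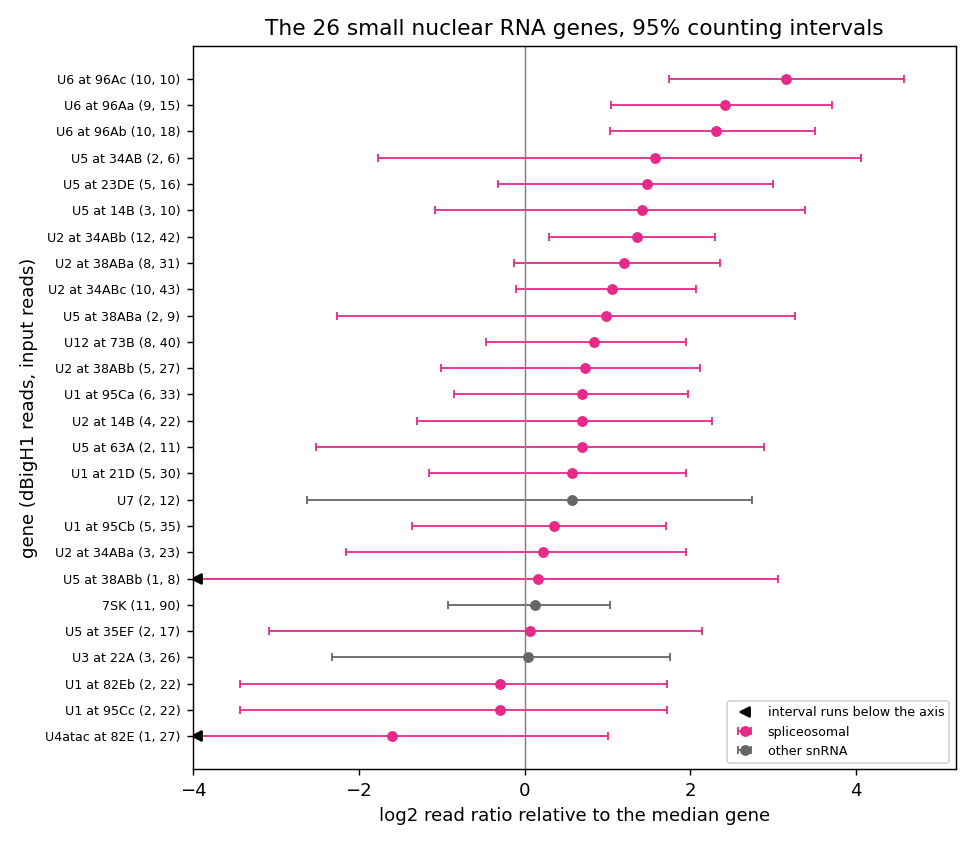
Log2 read ratio relative to the median gene (horizontal axis) of the 26 small nuclear RNA genes, ordered by value, with 95% counting intervals and the dBigH1 and input reads of each gene in brackets. The 3 U6 genes and U2 at 34ABb are the 4 genes whose interval lies wholly above 0.

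The deposited MAnorm column, a standardized score, gave another order. The median score of spliceosomal genes was 0.02 below that of all listed genes (-0.02), that of U2 genes was at -0.03 and that of U1 genes at -0.91. Only U5 and U6 lay above among the types with several copies, at 1.24 and 1.71. The side on which U1 and U2 lie therefore depends on the scale, while the 3 U6 genes were high on both.

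Box C/D guides pooled to 50 dBigH1 reads against 164 input reads over 21 genes, a ratio of 1.44 (0.96 to 1.91). With the U-numbered snoRNAs added to the class it was 1.004, level with the 1.01 of spliceosomal genes, so its place above the other classes depended on this choice. H/ACA guides pooled to 259 against 1540 over 94 genes, a ratio of 0.59 (0.39 to 0.78). The difference was 0.86 (0.33 to 1.37), and 0.76 with the zero-truncated estimates of 1.20 and 0.44. Box C/D genes are shorter, with a median of 83 bp against 140 bp, and had a median of 8 input reads against 15. Limited to genes with at least 10 input reads, a filter on the denominator of the ratio, the box C/D ratio was 0.80 and the H/ACA ratio 0.50, against 1.02 for spliceosomal genes. The cause of that change was not tested. By the same 1.5-fold limit, 15 box C/D genes (71.4%) were higher and 1 lower. Because every listed gene had at least 1 dBigH1 read, calls by this limit depend on input depth. With 1 read, a gene with 5 input reads was already higher (0.84), and a gene with 13 was not lower (-0.54). The split between classes is therefore partly fixed by their input reads. Of the H/ACA genes 42 (44.7%) were higher and 14 (14.9%) lower, near the 49.5% and 13.8% of other genes under 300 bp, where all listed genes gave 16.2% and 17.3%.

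The box C/D value leaned on the cluster in Uhg5, a noncoding host gene on 2R (10509111 to 10512013) whose introns carry 9 listed guides. They had 24 dBigH1 reads against 66 input reads, a ratio of 1.70, and without them the class pooled to 26 against 98, a ratio of 1.24 (0.56 to 1.88). The difference from H/ACA guides was then 0.66, with an interval of -0.06 to 1.33 that includes 0. With zero-truncated estimates the class without Uhg5 stood at 0.94 and the difference at 0.50. Me28S-G2703b, c and a, copies of a guide for methylation of 28S rRNA, had 5, 4 and 2 dBigH1 reads against 3, 6 and 3 input reads. Their pooled ratio was 3.03 (1.71 to 4.34). Me28S-C3227b had 5 against 4, a ratio of 3.48 (1.26 to 5.81), while its copy Me28S-C3227a had 1 against 7 (0.35). The other end of the range in the cluster was Me18S-C1366, with 1 against 15 (-0.75), and Me28S-A992, with 1 against 13 (-0.54). The 4 guides of Uhg5 with the highest ratios thus had 3 to 6 input reads each, and the other 5 had 5 to 15.

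Outside Uhg5, box C/D guides in Nop60B, copies of Me28S-G1083, had 5 dBigH1 reads against 17 input reads, a ratio of 1.39 (-0.40 to 2.89). Their zero-truncated estimate was 0.77. MeU6-A47, named for methylation of U6 snRNA, had 2 against 4. None of these single genes had an interval that excluded the median gene.

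Among H/ACA guides, 6 of 94 (6.38%) had an interval above the median gene, a smaller share than the 13.5% of other genes under 300 bp and the 17.9% of all listed genes. Psi28S-1153 (FBgn0083006, 2R, 9445044 to 9445191), which lies in no listed host, had 5 dBigH1 reads against 5 input reads, a ratio of 3.16 (1.04 to 5.28). Psi18S-841a in dom had 6 against 11 (2.28, 0.56 to 3.84), Psi18S-525a in Arc-p34 had 5 against 10 (2.16, 0.26 to 3.84) and Psi18S-1854c in RpS5a had 6 against 12 (2.16, 0.46 to 3.68). Or-aca1 in RpS16 and Psi18S-1377b in RpS7 had the most dBigH1 reads of any snoRNA, 8 each against 21 and 25 input reads, with ratios of 1.77 (0.38 to 3.0) and 1.51 (0.16 to 2.71). The lowest were Psi28S-3305c in Hrb98DE, with 1 against 26 (-1.54), and Psi28S-1180 in tou, with 1 against 25 (-1.49), both with intervals that span the median gene.

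H/ACA guides for the small ribosomal subunit RNA (18S) pooled to 118 dBigH1 reads against 587 input reads over 40 genes, a ratio of 0.84 (0.55 to 1.13). Those for the large subunit RNA (28S) had 127 against 865 over 50 genes, a ratio of 0.39 (0.11 to 0.66). The zero-truncated estimates were 0.72 for 18S and 0.20 for 28S. The difference was 0.45 (0.05 to 0.86), or 0.52 with these estimates. Without the 17 guides in Arc-p34, all for 18S, the 18S guides had 66 against 389 (0.60, 0.20 to 0.98) and the difference was 0.21 (-0.28 to 0.69), so it rested on that host. Genes of a locus lie side by side and are not independent. The copies of Psi18S-525 and Psi18S-640 alternate in Arc-p34. The 11 copies of Psi18S-525 pooled to 30 against 131 (1.03, 0.41 to 1.61) and the 7 copies of Psi18S-640 to 23 against 83 (1.31, 0.57 to 1.99). Of the 11 copies of Psi18S-525, Psi18S-525k lies apart from the rest, in Msp-300, and had 1 against 16 (-0.84).

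The 20 snoRNAs without a class in their name pooled to 38 dBigH1 reads against 247 input reads, a ratio of 0.46 (-0.07 to 0.96), and the zero-truncated estimate was 0.01. U14:30Eb, whose relatives in yeast and vertebrates act in 18S rRNA processing, had 4 against 7, a ratio of 2.35 (0.13 to 4.33). Its neighbour U14:30Ea had 2 against 9 (0.99). The U3 genes at 54A, which encode the guide for the first cleavages of pre-rRNA, had 3 against 29 (-0.11) and 2 against 30 (-0.75). Across the class no gene besides U14:30Eb had an interval that excluded the median gene.

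**Figure D4:**
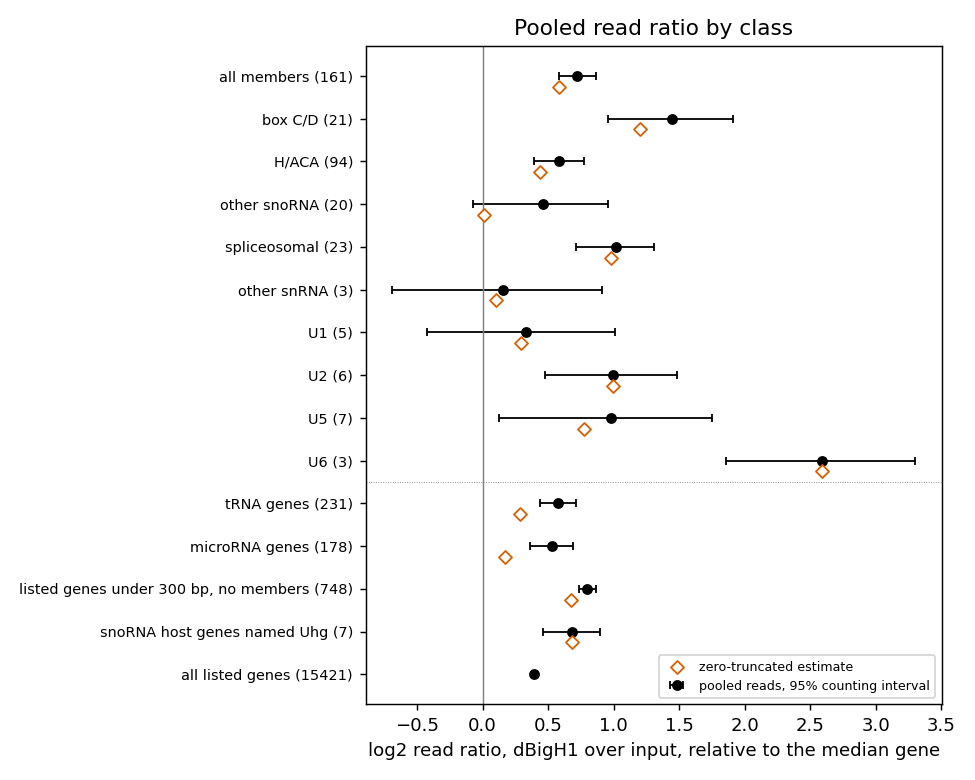
Pooled log2 read ratio relative to the median gene (horizontal axis) by class, by snRNA type and, below the dotted line, for other genes, with the number of genes in brackets. Circles with bars are pooled reads with 95% counting intervals and diamonds are zero-truncated estimates. U6 at 2.59 and box C/D guides at 1.44 lie above the other groups, and H/ACA guides at 0.59 lie among the tRNA and microRNA genes.

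Members were next set against the rest of their host genes. Of the 161 members, 140 lay wholly inside a listed longer gene, 134 of them on the same strand, in 46 hosts. Reads of a member were taken to be counted in its host too, and were subtracted to leave the rest of the host. Members had 376 dBigH1 reads against 2085 input reads, a ratio of 0.69 (0.52 to 0.85). The rest of the hosts had 9333 against 65499, a ratio of 0.35 (0.32 to 0.38). The difference was 0.34 (0.17 to 0.50), or 0.16 with the zero-truncated estimate. Members were above the rest of their host in 36 of 46 hosts, and the interval of the difference lay above 0 in 8 hosts and below 0 in 0. Counts of hosts, here and below, are not corrected for the required dBigH1 read, and 22 hosts had 1 member. Other listed genes under 300 bp pooled to 0.80, against 0.40 for all listed genes. Standing above longer genes was thus not particular to the members.

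The pooled value was governed by a few long hosts, since 3 of them hold 53.1% of the input reads outside members. In hosts of up to 7 kb (32 hosts, 106 members), members had 271 dBigH1 reads against 1504 input reads (0.69) and the rest had 708 against 7775 (-0.30), a difference of 0.98 (0.76 to 1.20), or 0.78 with the zero-truncated estimate. The length limit was chosen after seeing the data. Neighbouring members lay closer than a read length (50 nt) in 41 pairs, so some reads were subtracted more than 1 time. Input density was 118 reads per kb in members and 97.9 in the rest.

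Ribosomal protein genes are the classic snoRNA hosts. The 15 of them, among them sta, held 38 members with 104 dBigH1 reads against 623 input reads, a ratio of 0.58 (0.26 to 0.88). The rest of these hosts had 205 against 2671, a ratio of -0.55 (-0.76 to -0.34), so the rest lay below the median gene and the members above it. The difference was 1.12 (0.74 to 1.49), or 0.97 with the zero-truncated estimate, and members were higher in 14 of 15 hosts. RpS16 showed it most, with 16 dBigH1 reads against 57 input reads in its 4 members (1.33), and 7 against 185 in the rest (-1.57), a difference of 2.89 (1.43 to 4.47). In RpS5a the 11 members had 25 against 114 (0.97) and the rest had 13 against 170 (-0.55). In RpS7 the 5 members had 16 against 121 (0.24) and the rest 16 against 235 (-0.72), a difference whose interval of -0.19 to 2.10 includes 0.

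The noncoding hosts, named Uhg or U snoRNA host gene, carry their products in the introns. The 28 members assigned to them had 58 dBigH1 reads against 234 input reads, a ratio of 1.15 (0.71 to 1.57). Of these members 14 had a single dBigH1 read, and the zero-truncated estimate was 0.81. The rest of these 6 hosts had 98 against 723, a ratio of 0.28 (-0.04 to 0.58). The difference was 0.87 (0.33 to 1.40), or 0.53 with the zero-truncated estimate. Me28S-A2634c, with 2 against 9, also lies within Uhg7. Since the largest containing gene was taken as host, it was assigned to CG7974 on the opposite strand, and its reads stay in the rest of Uhg7. As whole genes, all 7 listed Uhg genes lay above the median gene, from 0.23 for U snoRNA host gene 2 to 1.27 (0.78 to 1.73) for Uhg3, which holds no listed member. The interval excluded the median gene for 3 of the 7, Uhg3, Uhg5 and Uhg8. Of all listed genes, 17.9% had an interval wholly above it. Uhg5 as a whole had 42 against 216 (0.80, 0.28 to 1.28). U snoRNA host gene 1, with 10 members, had 38 against 279 (0.28, -0.25 to 0.77), and its members and the rest did not differ beyond counting error, with a difference of 0.40 (-0.77 to 1.5).

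Other protein-coding hosts varied. In Arc-p34, which encodes a subunit of the actin-nucleating Arp2/3 complex, the 17 members had 52 dBigH1 reads against 198 input reads (1.23), and the rest had 39 against 398 (-0.19), a difference of 1.42 (0.74 to 2.11). In dom, which encodes the Domino chromatin remodeller, the 12 members had 34 against 174 (0.80), and the rest had 191 against 1778 (-0.06), a difference of 0.86 (0.24 to 1.45). The 6 members in exba had 11 against 125 (-0.35) and the rest 68 against 590 (0.04), a difference of -0.39 (-1.5 to 0.59). In Hrb98DE, an hnRNP gene, the 5 members had 13 against 101 (0.20) and the rest had 48 against 539 (-0.33).

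**Figure D5:**
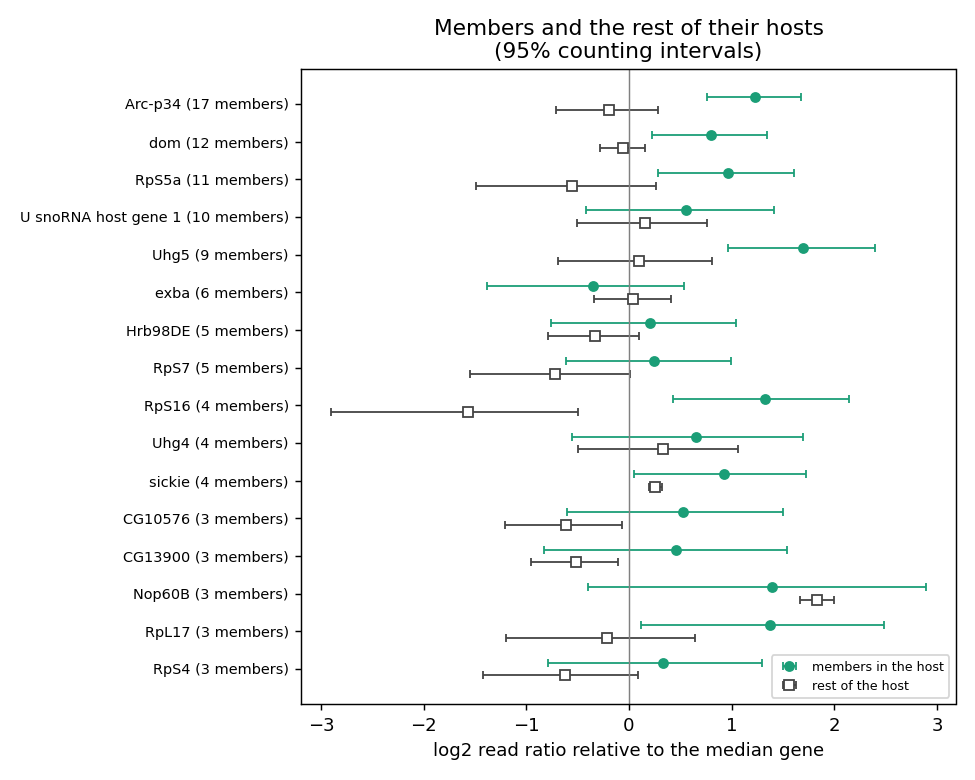
Log2 read ratio relative to the median gene (horizontal axis) of members (filled circles) and of the rest of the host (open squares) in the 16 hosts with 3 or more members, with 95% counting intervals. Members lie above the rest in 14 of the 16, except exba and Nop60B, and the rest of RpS16 is the lowest value at -1.57.

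Protein genes of the same particles were compared as a list chosen for their roles. Of 56 genes, 55 were matched in the table, 2 of them at least 1.5-fold above the median gene, against 16.2% of all listed genes, and 17 at least 1.5-fold below it (17.3% of all genes). The interval lay wholly above the median gene for 3 of the 55 and wholly below it for 4, against 17.9% and 9.41% of all listed genes. The median over the 55 genes was -0.27. Nop60B, which encodes the pseudouridine synthase of H/ACA particles, was the highest, with 434 dBigH1 reads against 1093 input reads, a ratio of 1.83 (1.66 to 1.99). Its 3 members took 5 of those dBigH1 reads, so the signal lay elsewhere in the gene. The other H/ACA core gene furthest from the median was CG4038 (Gar1), with 4 against 88 (-1.30, -3.21 to 0.11).

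In the box C/D core, Nop56 was the highest with 36 dBigH1 reads against 278 input reads (0.21) and hoip the lowest with 7 against 113 (-0.85). Fib, the methyltransferase, is itself a host and had 13 against 170 (-0.55) without its member. Of 13 Sm and Lsm genes, most of whose products form rings on snRNAs, 5 were lower and 1 was higher. Of all listed genes, 17.3% were lower and 16.2% higher. The Sm and Lsm genes ran from Lsm11 of the U7 particle with 20 against 111 (0.69, -0.08 to 1.38) to SmE with 4 against 87 (-1.28, -3.19 to 0.12). The interval excluded the median gene for 0 of these 13 genes. Of 10 spliceosome genes 4 were lower and 0 higher, beside the same shares of all genes. They ran from Prp3, listed as CG7757, at 0.25 to Prp31 with 15 against 316 (-1.24, -2.09 to -0.49). The interval excluded the median gene for Prp31 alone. Among 24 genes of snRNA transcription and assembly, Phax, an snRNA export adaptor, had 53 against 319 (0.57, 0.12 to 0.99). IntS2, a subunit of the Integrator complex that cleaves snRNA precursors, had 19 against 323 (-0.93, -1.68 to -0.26).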

How the data were processed

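ChIP-seq of dBigH1 and its input gave 1 library each. Per the labels' protocols, chromatin was sonicated to 200 to 500 bp, libraries had 18 PCR cycles and reads were single, of 50 nt. The build was dm3, and the tools named were Bowtie2, R 2.15, CASAVA 1.9 and FastQC 0.10, per the submitters' processing notes. The counting rule and the treatment of reads with several matches are not given in the sources used here.

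Per the file headers, the authors deposited log2 RPKM values, and a further column, named there a log2 fold change by MAnorm, whose deposited values behave as a standardized score. After 1 was subtracted from the exponentiated value, 100% of values in both libraries were whole reads within 0.01 read. Ratios of these reads, rather than of RPKM, were the main measure, because pooling needs reads. Names matched RefSeq for 135 of the 161 members and were used as the table gives them. No genome sequence was used.

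A host was the largest listed gene of at least 300 bp, not itself a small RNA gene, that contains the whole member. Named genes were every snRNA, snoRNAs whose interval excludes the median gene or with the most reads or extreme ratios, hosts with 3 or more members, and the extremes of each protein list. Others were chosen after their values were seen. Members and lists were chosen with earlier results of these data known. The functions were tested on simulated data. Python 3.11.15, pandas 2.3.3, scipy 1.17.1 and matplotlib 3.10.9 were used.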

Additional observations from a re-analysis of the deposited data

How the results depend on the processing

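Under scaling by library totals, H/ACA guides turned to -0.42 and the median over members to -0.31, box C/D guides went to 0.44, spliceosomal genes to 0.010, unclassed snoRNAs to -0.55 and other snRNAs to -0.85, while 25 members in place of 82 were at least 1.5-fold higher, 67 in place of 19 were lower, and intervals excluded the reference for 6 above and 2 below in place of 14 and 0, all by the shift of 1 constant. With at least 30 input reads (11 members), H/ACA guides were at -0.52 on the few genes left and unclassed snoRNAs at -0.75, with 5 members higher, 2 lower and 1 interval above. With at least 10 input reads, box C/D guides were at 0.80, and 49 of 119 members were higher, a count chosen after seeing the data. With at least 10 dBigH1 reads, a filter that keeps high genes by construction, 4 of 5 were higher and 0 lower, with a median of 1.35. The log2 limit of 1.5-fold, applied to the MAnorm score itself, gave 66 higher and 48 lower. That score behaves as a standardized score, so these counts are not of 1.5-fold differences. The median score was 0.26 above that of all listed genes, and with a pseudocount of 5 the median ratio was 0.31. The score and the values without Uhg5, without Arc-p34 and without U6 were also chosen after seeing the data. At 2-fold 10 were lower, and 99% intervals excluded the median gene above for 7.

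The difference between members and hosts was 0.51 in hosts with 3 or more members, 0.98 in hosts up to 7 kb and 0.16 with the zero-truncated estimate, the last 2 chosen after seeing the data. Among protein genes, 1 was higher and 11 lower on log2(RPKM + 1), 1 and 3 at 2-fold, and 1 was higher without Nop60B. The cause of these changes was not tested except where stated. No paired analysis was possible because there was 1 library per group. For the same reason no replicate could be left out. Depth limits single members: with 2 dBigH1 reads at the median, only differences of several fold were detectable.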

Other observations

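By chromosome, members on the X (19 genes) pooled to 46 dBigH1 reads against 204 input reads, a ratio of 1.01 (0.52 to 1.48), and autosomal members (142 genes) to 434 against 2392, a ratio of 0.70 (0.55 to 0.84). The difference of 0.31 had an interval of -0.20 to 0.81. With zero-truncated estimates of 0.80 on the X and 0.56 on autosomes it was 0.23. Males carry a single X, and the X members had 17.4 dBigH1 reads per kb and 77.2 input reads per kb, against 23.4 and 129 in autosomal members. Pooled ratios by arm were 1.01 on 2L (34 genes), 0.81 on 2R (57), 0.40 on 3L (21, -0.02 to 0.79) and 0.44 on 3R (30), where the U6 cluster lies.

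The genes on either side of Nop60B lay within 1.5-fold of the median gene. mRpS17, on the opposite strand with its 5′ end 289 bp before Nop60B, had 9 dBigH1 reads against 109 input reads (-0.44, -1.61 to 0.54). CG3363 on the other side had 92 against 933 (-0.18, -0.51 to 0.13). Farther upstream Dat had 528 against 1920 (1.30, 1.15 to 1.44). CG34355, host of U1 at 95Cb and 95Cc, was also high outside its members, with 592 against 2473 (1.10), while the pair of U1 genes had 7 against 57 (0.13), a difference of -0.96 (-2.35 to 0.18).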
